A study of Mus musculus with 6 samples.

Results

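The 10 genes described here are markers of contractile wound cells, of the cells that wrap blood vessels, and of the first matrix laid into a wound. They were taken from a list of names by role, with no threshold on measured values. Earlier results of these data were known when the list was chosen. Acta2, Tagln, Cnn1 and Myh11 encode parts of the contractile apparatus, and Rgs5, Pdgfrb and Cspg4 mark mural cells. Postn, Tnc and Fn1 encode matrix proteins. All 10 are among the 33184 genes of the expression table, and 9 of them are among the 16005 genes that were tested because their mean over the libraries reached 0.5 FPKM (reads divided by exon length and by the total of the library). Tagln lay below that minimum.

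The RNA came from skin wounds of db/db mice, which carry a mutated leptin receptor gene and are obese and diabetic; the study's methods give the background as C57BL/Ks. Dorsal full-thickness wounds of 6 mm received injections around the wound at 1 day post-injury (dpi1), of a control siRNA (NC, 3 libraries) or of SFRP2-siRNA (3 libraries), and whole wound tissue was taken at dpi4 according to the protocol, although the sample titles read day 3. All 6 libraries share the db/db genotype, the wound and the injection, and no unwounded, uninjected or wild-type library is among them. The siRNAs were chemically modified and injected into tissue, so no single cell type was targeted, and the treated libraries carry the same numbers, 1 to 3, as the 3 Sfrp2 sequences listed by the study; whether each wound received a different sequence is not stated. Age and sex were not given in the sources used here, and nothing states that each library is a separate animal, so the p-values below measure the spread between these libraries.

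During repair, fibroblasts and perivascular cells can become myofibroblasts, which assemble smooth muscle actin into stress fibers and pull the wound edges together. Pericytes and vascular smooth muscle cells, together called mural cells, surround endothelial tubes and respond to platelet-derived growth factor through the receptor encoded by Pdgfrb. Fibronectin, tenascin-C and periostin form the provisional matrix on which these cells move before collagen matures. The study stained α-SMA, the protein product of Acta2, and the endothelial protein CD31 to follow matrix remodeling and vessel growth. In diabetic wounds it reported fewer CD31-positive vessel structures and less α-SMA-positive area with SFRP2 siRNAs. The values below are RNA of whole wound tissue at dpi4 and not stained protein area. They come from every cell of the wound that expresses the gene.

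The 2 genes whose sequence is shown are those on which the description below most turns: Acta2, the α-SMA gene, which was the most steady abundant member, and Postn, whose groups did not overlap. The CArG box is the element bound by serum response factor, which with its myocardin family partners drives smooth muscle genes. It was searched as CCNNNNNNGG with at least 5 of the 6 central bases A or T, a motif that reads the same way on both strands, in the 250 bases before each RefSeq start (GRCm38.p6), and 6 of the 10 members had such a window. Of all 32851 windows, 8.59% held a match. In the Acta2 window there were 2, at bases -84 to -75 and -34 to -25 from the start, shown with 10 bases on each side and the CArG match in capitals. They lie at chr19:34255438-34255467 and chr19:34255388-34255417, both on the - strand.
Acta2 distal CArG: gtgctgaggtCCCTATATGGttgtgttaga
Acta2 proximal CArG: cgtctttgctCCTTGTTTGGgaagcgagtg
The GENCODE vM21 gene model of Acta2 begins further upstream than the RefSeq start, so both stretches fall inside the span of that gene model. No CArG match was present in the windows of Cnn1, Rgs5, Cspg4, Postn or Tnc. The Postn window at chr3:54360857-54361106 (+ strand) held a TATA element, TATAAA, at bases -26 to -21, shown in capitals, and 12.4% of all windows held this element on either strand.
Postn promoter: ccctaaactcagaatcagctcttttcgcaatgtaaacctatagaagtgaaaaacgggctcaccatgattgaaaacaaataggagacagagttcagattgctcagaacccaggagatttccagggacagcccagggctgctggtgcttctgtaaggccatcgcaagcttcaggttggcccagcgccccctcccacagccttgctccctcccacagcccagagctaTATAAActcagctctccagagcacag

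Apart from Tagln, the members rested on 221 to 50507 reads each. Read totals recovered from the FPKM steps ran from 42.9 to 47.1 M reads per library, and 26081 to 27189 genes were above 0. Sfrp2 itself, the target, measured 11.6, 40.6 and 14.1 FPKM in NC and 50.6, 54.6 and 55.2 FPKM where the label reads SFRP2-siRNA, so the target transcript had higher values in the group meant to lower it (log2 fold change 1.45 ± 0.43 SE, unadjusted p = 0.0125, limma adjusted p = 0.518). By staining of wound tissue, the study reported the opposite direction for SFRP2 protein, less of it with the siRNAs. That staining is labelled with an earlier day than the dpi4 of the RNA protocol. The reason why RNA and protein differed in direction was not tested. The second NC library stood apart from the other NC libraries in Sfrp2 and in several members below. The library labels are used here as given, and every direction below is that of libraries labelled SFRP2-siRNA against NC.

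No gene passed the call rule, an adjusted p under 0.05 with an absolute log2 fold change over 1, in limma's test with Benjamini-Hochberg adjustment over all 16005 genes (0%), and no adjusted p was below 0.518. The study used the same thresholds with DESeq2 and reported differentially expressed genes in wound tissue at dpi4, more of them lower than higher. DESeq2 takes counts and the test here took FPKM, so these results are not on one footing. Before adjustment, 1533 genes (9.58%) had p under 0.05, with 1075 higher (6.72%) and 458 lower (2.86%). Groups without overlap were found in 2854 genes (17.8%), 2226 higher (13.9%) and 628 lower (3.92%). With median-of-ratios scaling these became 886 higher and 1227 lower, so the split between directions depended on the scaling. The median log2 fold change over all genes was 0.13 and 71.8% of genes lay above 0. Of the 9 tested members, 7 had a log2 fold change above 0 and 2 below, none was called, and an unadjusted p under 0.05 was seen for 1 higher gene, Postn, and 1 lower gene, Cspg4. These were also the only 2 members whose groups did not overlap. The median log2 fold change of the 9 tested members was 0.36, beside 0.13 for all genes. At 2 of 9, these shares are of a small list and show nothing particular to it.

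**Figure D1:**
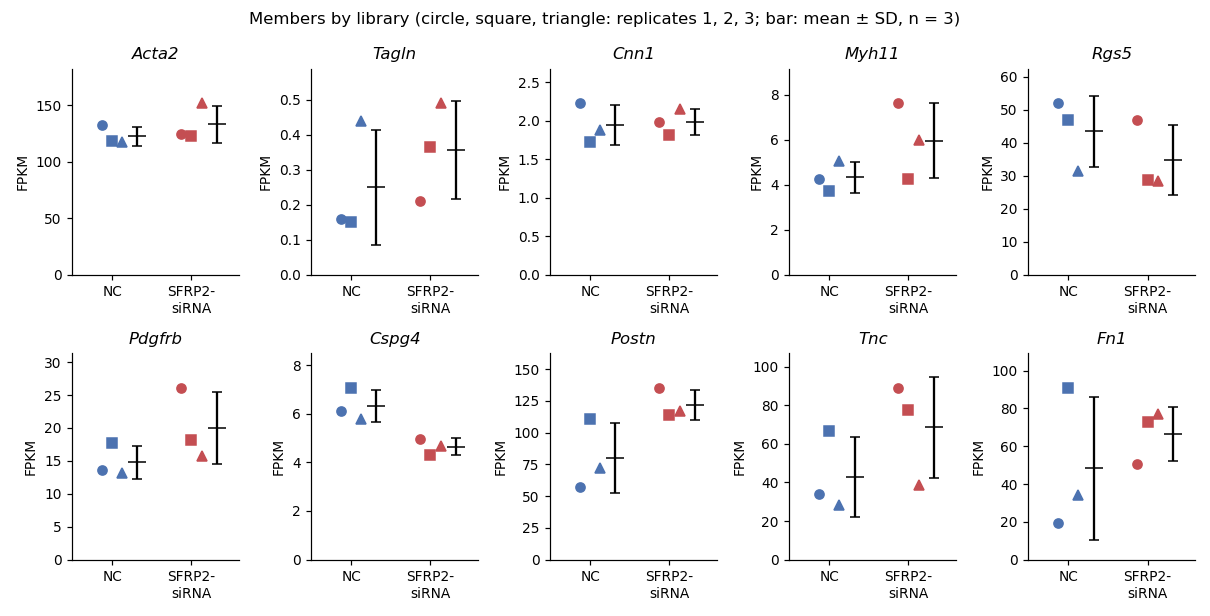
FPKM of each of the 10 genes in the 3 NC libraries and the 3 libraries labelled SFRP2-siRNA, on linear axes from 0, with circle, square and triangle for libraries 1, 2 and 3 and a bar for the mean ± SD (n = 3), in panels ordered by role. Acta2 and Cnn1 sit at nearly one level in all 6 libraries, all 3 Cspg4 points of the siRNA libraries lie below the NC points, and all 3 Postn points lie above them.

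Because FPKM is per kilobase, levels can be compared between genes. In NC libraries the order of mean FPKM ran Acta2 (123), Postn (80.1), Fn1 (48.2), Rgs5 (43.4), Tnc (42.9), Pdgfrb (14.8), Cspg4 (6.31), Myh11 (4.33), Cnn1 (1.94) and Tagln (0.250). The ranges of Postn and Fn1 overlapped, as did those of Fn1, Rgs5 and Tnc, so the order among these neighbours did not exceed their spread. Acta2 lay above Postn, and each gene from Pdgfrb downward lay below its upper neighbour, in all 3 NC libraries without overlap. The place of Tagln is that of its listed value, whose limit is given below. The transcripts for smooth muscle actin and for provisional matrix were therefore present at 42.9 to 123 FPKM, while the late smooth muscle genes Cnn1 and Myh11 were at a few FPKM.

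Acta2, the gene of α-SMA, measured 132, 118 and 117 FPKM in NC and 125, 123 and 152 FPKM in the 3 siRNA libraries. The groups overlapped, with siRNA library 3 the highest of all 6, and the highest value was 1.30 times the lowest. Group means were 123 ± 8.47 and 133 ± 16.5 FPKM (SD, n = 3 each), which gave 0.11 ± 0.17 (SE) as the log2 fold change, with a 95% interval of -0.29 to 0.51 (limma adjusted p = 0.756). On the fold scale the interval ran from 0.82 to 1.42, so these data show no difference in Acta2 at dpi4 and leave room for one inside those bounds. The sign of its small difference depended on the scaling, as it turned to -0.046 with median-of-ratios scaling, while with equal sums per library all 3 siRNA values lay above those of NC. Without siRNA library 3 the log2 fold change was 0.013.

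The reads of Acta2 could be confused with those of other actins, whose coding sequences are close. Of the 2146 windows of 50 bases along Acta2 exons, 7 (0.326%) occurred in another gene and none of the 2096 windows of 100 bases did, so little of its sequence was shared at those lengths. The skeletal muscle actin Acta1 measured 1988, 2861 and 3345 FPKM in NC and 2312, 3483 and 6532 FPKM in the siRNA libraries. It ran at 15.02 to 42.9 times the level of Acta2 within a library, while Acta2 stayed level, and both were highest in siRNA library 3. Actg2, the enteric smooth muscle actin, lay between 4.73 and 6.60 FPKM in all 6 libraries.

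Cnn1, which encodes calponin and marks mature smooth muscle, measured 2.23, 1.72 and 1.87 FPKM in NC and 1.98, 1.82 and 2.15 FPKM in the siRNA libraries. The groups overlapped fully, and this gene had the smallest SD of log2(FPKM + 1) of the tested members, 0.087 over the 6 libraries. The added 1 FPKM lowers that SD for a gene at this level. In FPKM its highest value was 1.29 times its lowest, against 1.30 times for Acta2. The log2 fold change was 0.02 ± 0.12 SE (95% interval -0.26 to 0.31, limma adjusted p = 0.942), and it turned to -0.089 with median-of-ratios scaling, to -0.086 with quantile normalization and to -0.053 with equal sums without mitochondrially encoded genes. Acta2 and Cnn1 had the closest profiles of all member pairs, with a root mean square difference of centred log2 values of 0.082 over the 6 libraries, and their ratio stayed between 59.4 and 70.8. Both profiles were nearly flat, which by itself keeps this difference small.

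Myh11, the smooth muscle myosin heavy chain, is the member most restricted to mature smooth muscle. It measured 4.24, 3.70 and 5.04 FPKM in NC and 7.63, 4.27 and 5.98 FPKM in the siRNA libraries. Library 1 of the siRNA group was the highest and its library 2 lay inside the NC range, so the groups overlapped. The log2 fold change was 0.36 ± 0.21 SE (95% interval -0.13 to 0.85, limma adjusted p = 0.538). It was 0.19 without siRNA library 1, 0.55 without siRNA library 2, 0.23 with median-of-ratios scaling and 0.11 with sample weights.

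Tagln encodes SM22, a calponin family protein that is usually among the most abundant transcripts of smooth muscle, yet it measured only 0.160, 0.1503 and 0.439 FPKM in NC and 0.211, 0.366 and 0.491 FPKM in the siRNA libraries, or 14 to 46 reads. The ratio of Acta2 to Tagln was 267 to 829 within a library. The values overlapped, the difference on the log2(FPKM + 1) scale was 0.12, and an exact two-sided permutation test gave p = 0.5, where the smallest p that 3 against 3 libraries can give is 0.1. Tagln lies at chr9:45929619-45936058 (GRCm38, GENCODE vM21, - strand), and 1349 of its 1988 exon bases (67.9%) are also exon bases of genes on the other strand, 1241 of Gm48529 and 108 of Pcsk7. Gm48529 measured 0.384 to 0.774 FPKM and Pcsk7 6.60 to 10.4 FPKM. Of the main transcript, Tagln-201, 610 of 1595 bases are shared with no other gene. Gm48529 itself rested on 43 to 90 reads. Whether the counting used strand is not given in the sources used here, nor how reads on shared bases were treated. How many reads of Tagln were left uncounted is therefore not known. The low value is given as listed and not as the abundance of SM22 transcripts. Among the other members, 2.26% of Tnc and 2.50% of Fn1 exon bases overlapped another gene, and none of the rest did.

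Rgs5, a regulator of G protein signaling that is a standard pericyte marker, measured 52.0, 47.0 and 31.3 FPKM in NC and 46.9, 28.7 and 28.3 FPKM in the siRNA libraries. Libraries of one group differed as much as the groups did: NC library 3 was near siRNA libraries 2 and 3, and siRNA library 1 was near NC library 2. The log2 fold change was -0.33 ± 0.27 SE (95% interval -0.98 to 0.32, limma adjusted p = 0.612). With 1 library left out it ran from -0.56 without siRNA library 1 and -0.54 without NC library 3 to -0.22 without siRNA library 2, -0.20 without siRNA library 3 and -0.18 without NC library 1.

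Pdgfrb, the receptor through which mural cells are recruited, measured 13.6, 17.7 and 13.2 FPKM in NC and 26.1, 18.2 and 15.7 FPKM in the siRNA libraries. The groups overlapped, because siRNA library 3 lay below NC library 2. Mean Pdgfrb was 14.8 ± 2.52 FPKM in NC and 19.99 ± 5.43 FPKM in the siRNA libraries (SD, n = 3 each), the log2 fold change was 0.39 ± 0.22 SE (95% interval -0.13 to 0.91, limma adjusted p = 0.536), and it was 0.19 without siRNA library 1, 0.24 with median-of-ratios scaling and 0.25 with sample weights. Pdgfrb is also made by dermal fibroblasts, so its level is not that of mural cells alone.

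Cspg4 encodes NG2, a surface proteoglycan of pericytes. It measured 6.11, 7.06 and 5.76 FPKM in NC and 4.98, 4.31 and 4.66 FPKM in the siRNA libraries, on 2329 to 3948 reads. All 3 siRNA libraries lay below all 3 NC libraries. Mean Cspg4 was 6.31 ± 0.672 FPKM in NC and 4.65 ± 0.333 FPKM in the siRNA libraries (SD, n = 3 each), and the log2 fold change was -0.37 ± 0.12 SE with a 95% interval of -0.67 to -0.07. The unadjusted p was 0.0218 and limma's adjusted p 0.518, so the gene did not pass the test, and 458 of 16005 genes (2.86%) were lower at that unadjusted threshold. With equal sums per library the groups overlapped and the log2 fold change was -0.29 (unadjusted p = 0.15, limma). Under the remaining scalings the siRNA values stayed below those of NC without overlap. There the log2 fold change was -0.51 for median-of-ratios, -0.50 for quantiles and -0.46 for equal sums that left out mitochondrially encoded genes. In that order the unadjusted p was 0.0063, 0.0071 and 0.016, and the adjusted p was 0.646, 0.655 and 0.709 (limma).

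In bulk tissue, fewer cells of a type and less RNA per cell cannot be told apart, and this holds for each of these genes. The 3 mural members did not share a direction: Pdgfrb had the highest value in siRNA library 1, Rgs5 in NC library 1 and Cspg4 in NC library 2. Within a library, the ratio of Cspg4 to Pdgfrb was 0.451, 0.399 and 0.438 in NC and 0.191, 0.237 and 0.296 in the siRNA libraries, and that of Rgs5 to Pdgfrb was 3.83, 2.65 and 2.38 against 1.80, 1.58 and 1.80. Both ratios were lower in all 3 siRNA libraries. They do not depend on how libraries are scaled, but they were chosen after the values were seen and carry no test.

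**Figure D2:**
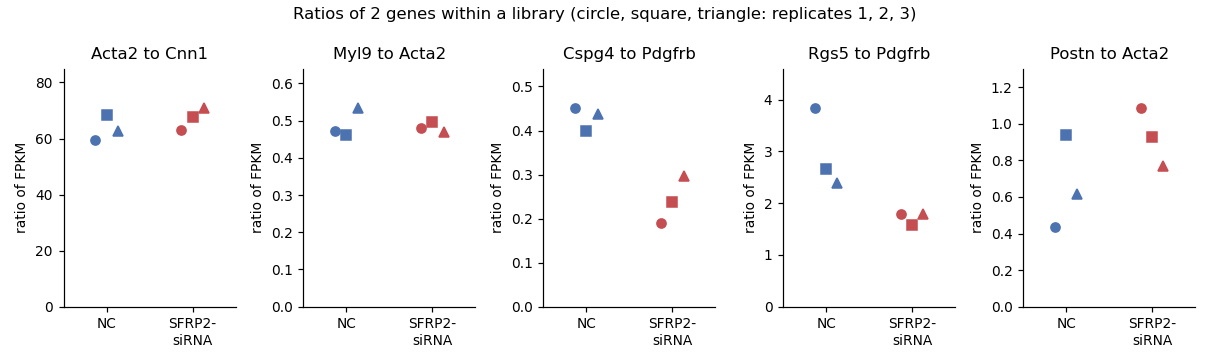
Ratios of FPKM between pairs of genes within each library, on linear axes from 0, with circle, square and triangle for libraries 1, 2 and 3 of each group: 1 point for each of the 3 NC libraries and the 3 libraries labelled SFRP2-siRNA. The ratios of Cspg4 and of Rgs5 to Pdgfrb are lower in all 3 siRNA libraries, while that of Acta2 to Cnn1 stays between 59.4 and 70.8.

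The endothelial cells that mural cells cover give a reference for these values. Pecam1, the gene of CD31, measured 17.9, 22.0 and 13.9 FPKM in NC and 28.0, 17.5 and 14.998 FPKM in the siRNA libraries, with overlap, and the summed level of 8 endothelial markers was 69.1 to 98.5 FPKM in NC and 65.3 to 116.7 FPKM in the siRNA libraries. Of these 8 markers 4 were higher and 4 lower in value. The ratio of Rgs5 to Pecam1 was 2.91, 2.14 and 2.26 in NC and 1.68, 1.64 and 1.88 in the siRNA libraries, and that of Cspg4 to Pecam1 was 0.341, 0.321 and 0.415 against 0.178, 0.246 and 0.311. Against Pecam1 both mural genes thus had lower values in the siRNA libraries without overlap, but this depended on the endothelial gene chosen. Against Kdr, a VEGF receptor, the ratio of Rgs5 was 7.29 to 8.72 in NC and 6.80 to 8.63 in the siRNA libraries, and that of Cspg4 was 1.02 to 1.34 and 0.792 to 1.42, both with overlap. Against Cdh5, the gene of VE-cadherin, the ratio of Cspg4 was 0.204 to 0.282 and 0.1499 to 0.228, with overlap, and that of Rgs5 was 1.415 to 1.74 and 1.16 to 1.413, apart by a narrow margin. These ratios too were chosen after the values were seen.

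Postn encodes periostin, a matricellular protein secreted by activated fibroblasts. It measured 57.4, 110.8 and 72.1 FPKM in NC and 135, 113 and 117 FPKM in the siRNA libraries, on 22029 to 50507 reads. The groups did not overlap, but by a narrow margin, since NC library 2 lay just under siRNA library 2. Mean Postn was 80.1 ± 27.6 FPKM in NC and 122 ± 11.7 FPKM in the siRNA libraries (SD, n = 3 each), and the log2 fold change was 0.65 ± 0.26 SE with a 95% interval of 0.03 to 1.26. The unadjusted p was 0.0416 and limma's adjusted p 0.518, so the gene did not pass the test. The log2 fold change was 0.91 without NC library 2, 0.44 without NC library 1 and 0.43 with sample weights. With equal sums, median-of-ratios scaling, quantile normalization and equal sums without mitochondrially encoded genes, the groups overlapped.

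Tnc, the gene of tenascin-C, an anti-adhesive glycoprotein of wound edges, measured 33.8, 66.4 and 28.3 FPKM in NC and 89.0, 77.5 and 38.9 FPKM in the siRNA libraries. Library 3 of each group was low, NC library 2 was high, and the groups overlapped. The log2 fold change was 0.68 ± 0.42 SE (95% interval -0.31 to 1.67, limma adjusted p = 0.556). It was 1.04 without NC library 2, 1.04 without siRNA library 3, 0.45 without siRNA library 1 and 0.44 without NC library 3, so 1 library moved the estimate by more than 1.5 times.

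Fn1, the gene of fibronectin, was the most variable member. It measured 19.5, 90.9 and 34.4 FPKM in NC and 50.4, 72.7 and 76.9 FPKM in the siRNA libraries, and its highest value was 4.67 times its lowest. Both extremes were NC libraries, library 2 the highest of all 6 and library 1 the lowest. The log2 fold change was 0.72 ± 0.52 SE (95% interval -0.53 to 1.96, limma adjusted p = 0.585); without NC library 2 it was 1.31 and without NC library 1 it was 0.22. This table gives a gene total, so the cellular and plasma forms of fibronectin were not separated.

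The matrix genes thus had the larger differences and the larger spread. The median log2 fold change was 0.68 for the 3 matrix members, 0.11 for the 3 tested contractile members and -0.33 for the 3 mural members, beside 0.13 for all genes, and the SD of log2 values over the 6 libraries was 0.432 for Postn, 0.617 for Tnc and 0.751 for Fn1 against 0.127 for Acta2. The ratio of Postn to Acta2 was 0.433, 0.938 and 0.614 in NC and 1.09, 0.926 and 0.769 in the siRNA libraries, with overlap. NC library 2 was the highest NC library for Postn, Tnc, Fn1, Pdgfrb, Cspg4 and Sfrp2.

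**Figure D3:**
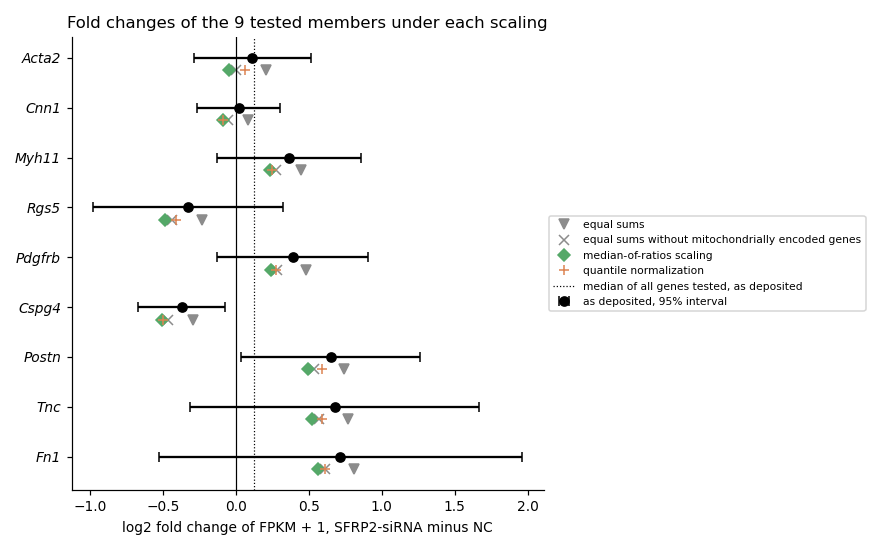
Log2 fold change of libraries labelled SFRP2-siRNA against NC for the 9 tested members, with black points at the limma estimate on log2(FPKM + 1), bars for the 95% interval, a dotted line at the median of all genes, 0.13, and smaller symbols below each gene for 4 other scalings. Only the intervals of Cspg4, -0.67 to -0.07, and Postn, 0.03 to 1.26, leave out 0, and neither gene passed the adjusted test; the symbols of Acta2 and Cnn1 fall on both sides of 0.

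Markers of other cell types were summed in the same libraries. Among the lists below, only the fibroblast and macrophage sums did not overlap between the groups. The summed level of 8 fibroblast markers was 834 to 1843 FPKM in NC and 2048 to 2138 FPKM in the siRNA libraries, and all 8, Pdgfra among them, were higher at an unadjusted p under 0.05 (limma); that of 8 macrophage markers was 702 to 1154 and 1280 to 1858 FPKM, with 8 of 8 higher in value and 5 of them at an unadjusted p under 0.05. The 10 skeletal muscle markers, all higher in value, summed to 3474 to 7016 FPKM in NC and 4744 to 13317 FPKM in the siRNA libraries, and the 8 keratinocyte markers, 3 higher and 5 lower, to 3851 to 6452 and 3414 to 6827 FPKM. Neutrophil markers, with 6 of 6 higher, summed to 1135 to 1761 and 980 to 5522 FPKM, and adipocyte markers, with 8 of 8 lower, to 1744 to 2199 and 927 to 2390 FPKM. Schwann cell markers summed to 44.4 to 74.8 and 38.7 to 63.4 FPKM, with 5 of 6 higher and 1 lower in value and 5 of 6 at an unadjusted p under 0.05. At that threshold there was no skeletal muscle, neutrophil or adipocyte marker and 1 keratinocyte marker (limma). Beside these counts, 71.8% of all genes tested lay above 0, and 6.72% were higher and 2.86% lower at that threshold. Every marker of these lists was above 0 in all 6 libraries, so epidermis, dermis, vessel and muscle were all represented in the labelled skin wound tissue. The 16 mitochondrially encoded genes made up 35.8%, 22.2% and 17.4% of all FPKM in the NC libraries against 16.6%, 11.8% and 13.8% in the siRNA libraries, without overlap. The part of these markers and of the mitochondrial share in the values of the 10 genes was not tested.

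The wider gene lists around each role were counted in the same fit, and none held a called gene. The smooth muscle contractile list had 24 genes, of which 22 were tested, and 16 were higher and 6 lower in value with a median log2 fold change of 0.15. An unadjusted p under 0.05 was seen for 1 higher and 1 lower gene, beside 6.72% higher and 2.86% lower of all genes tested. Lmod1, a leiomodin that nucleates actin filaments, measured 1.09, 1.38 and 1.19 FPKM in NC and 2.08, 1.40 and 1.90 FPKM in the siRNA libraries (log2 fold change 0.33 ± 0.14 SE). Its groups did not overlap, but by a narrow margin, and the limma adjusted p was 0.518. Such a separation, with higher siRNA values, was found in 13.9% of all genes tested. Des, the intermediate filament gene desmin, which skeletal muscle also expresses, measured 141, 190 and 217 FPKM in NC and 230, 207 and 436 FPKM in the siRNA libraries, with overlap.

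Of 21 genes of this contractile list with a promoter window, 7 (33.3%) held a CArG match: Cnn2, Mrtfa, Myl6, Myl9, Srf, Synm and Vcl. The share over all 27025 genes with a window was 9.78%, and the matches are a description of these letters only. Myl9, the regulatory light chain of smooth muscle myosin, kept a ratio to Acta2 of 0.461 to 0.533 in all 6 libraries.

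The pericyte and vessel wall list had 18 genes, of which 17 were tested, with 12 higher and 5 lower in value and a median log2 fold change of 0.12, close to that of all genes. Tbx18, a transcription factor of mural cells, measured 1.06, 1.78 and 0.976 FPKM in NC and 2.14, 1.96 and 1.84 FPKM in the siRNA libraries, without overlap (log2 fold change 0.41 ± 0.16 SE, limma adjusted p = 0.518). Angpt1, the Tie2 ligand that mural cells supply to endothelium, measured 1.28, 1.44 and 0.981 FPKM in NC and 2.37, 1.77 and 1.39 FPKM in the siRNA libraries, with overlap. Ednra, an endothelin receptor of vascular smooth muscle, measured 3.17, 3.33 and 3.74 FPKM in NC and 3.98, 3.85 and 3.86 FPKM in the siRNA libraries, without overlap but with a log2 fold change of 0.15 only. Over all genes tested, 71.8% lay above 0, so 12 of 17 shows nothing particular to this list. Beside Tbx18 and Ednra, 13.9% of all genes tested were higher without overlap. Cspg4 and Rgs5 had lower values, while most genes of this list, like most genes tested, had higher ones. The 5 lower genes of the list all overlapped between the groups. Their log2 fold changes were -0.38 for Heyl, -0.19 for Kcnj8, -0.14 for Cox4i2, -0.060 for Foxs1 and -0.048 for Ndufa4l2.

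In the wound matrix and activated fibroblast list all 24 genes were tested, 21 were higher and 3 lower in value, and the median log2 fold change was 0.47. An unadjusted p under 0.05 was seen for 5 genes, all higher: Vcan, Tgfbi, Cthrc1, Itgb3 and Itga9. Of all genes tested, 6.72% were higher at that threshold, 71.8% lay above 0 and 13.9% were higher without overlap. Cthrc1, a secreted protein of activated fibroblasts, measured 25.03, 55.1 and 21.3 FPKM in NC and 68.5, 78.7 and 73.1 FPKM in the siRNA libraries (log2 fold change 1.22 ± 0.34 SE, limma adjusted p = 0.518). Itgb3, the integrin chain that pairs with the αv chain to bind fibronectin and periostin, measured 3.35, 4.55 and 2.68 FPKM in NC and 6.01, 5.77 and 6.05 FPKM in the siRNA libraries (0.64 ± 0.17 SE). In both genes the groups did not overlap and NC library 2 was the highest NC library. Tgfbi, a matrix protein related to periostin, measured 51.9, 84.6 and 55.7 FPKM in NC and 196, 119 and 79.2 FPKM in the siRNA libraries, with overlap.

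The list of TGF-β and PDGF signals, which drive myofibroblast formation and mural recruitment, had 13 genes, all tested, with 10 higher and 3 lower in value and a median log2 fold change of 0.27. Pdgfc, a ligand of the α receptor, measured 1.501, 3.18 and 2.15 FPKM in NC and 4.04, 3.47 and 3.45 FPKM in the siRNA libraries, without overlap (0.54 ± 0.20 SE, limma adjusted p = 0.518). Pdgfra, that receptor and a fibroblast marker, measured 5.38, 14.1 and 8.504 FPKM in NC and 19.8, 15.8 and 13.8 FPKM in the siRNA libraries, with overlap. Tgfbr2, the TGF-β receptor chain that binds the ligand, measured 17.2, 29.8 and 19.1 FPKM in NC and 34.1, 28.7 and 32.1 FPKM, again with overlap. These 3 had the only unadjusted p values under 0.05 in the list of 13, beside 6.72% of all genes tested that were higher at that threshold. Among all genes tested, 13.9% were higher without overlap, as Pdgfc was.

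**Figure D4:**
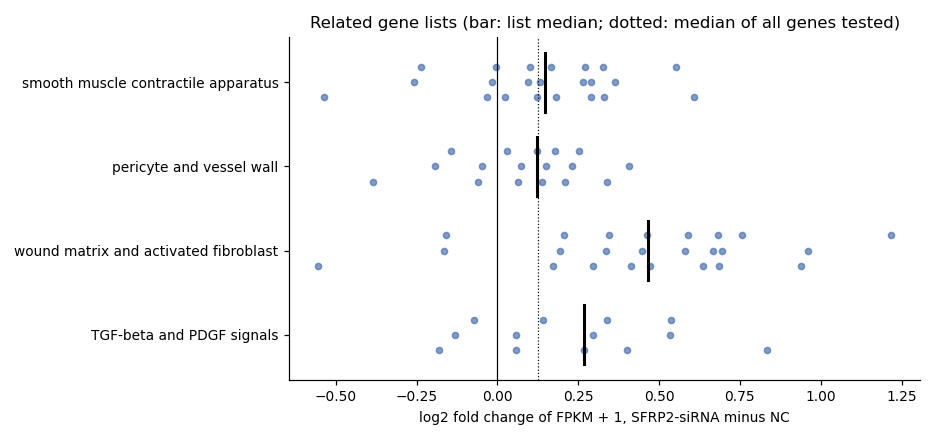
Log2 fold change of libraries labelled SFRP2-siRNA against NC on log2(FPKM + 1) for each tested gene of the 4 wider lists, with one point per gene, a bar at the list median and a dotted line at the median of all genes, 0.13. The medians are 0.15 for the contractile list, 0.12 for the pericyte list, 0.47 for the matrix list and 0.27 for the TGF-β and PDGF list.

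Genes with the profile most like that of the first member of each role were found over the 6 libraries by the root mean square difference of centred log2 values. For Acta2 these were Cdh13 (0.032), Rps4l (0.038) and Gm49066 (0.039), for Rgs5 they included Pth1r (0.104) and Nr1h3 (0.104), and for Postn they were P4ha1 (0.025), C1qa (0.037) and Adamts15 (0.042). Between members, Cnn1 and Cspg4 differed by 0.239, Pdgfrb and Postn by 0.255 and Rgs5 and Cspg4 by 0.269, while Rgs5 and Fn1 were the farthest pair at 0.953. With 6 libraries and 16005 genes such a measure ranks profiles and says nothing of shared control.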

How the data were processed

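Total RNA of 6 skin wounds was made into paired-end mRNA libraries with an ABclonal kit; HISAT2 and featureCounts of Subread are named in the submitters' processing notes, with versions and genome build not given in the sources used here. The authors deposited 1 table of FPKM per Ensembl gene, and all 6 columns matched a sample title. With exon lengths of GENCODE vM21 (GRCm38), 32029 of 32582 genes (98.3%) came out as whole reads within 0.02 read, giving totals of 42.9 to 47.1 M reads. At 0.5 FPKM a gene had a median of 83.9 reads. These totals cover counting depth only.

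From these values log2(FPKM + 1) was fitted in limma 3.58.1 (R 4.3.3) with an intensity trend over the 16005 genes whose mean reached 0.5 FPKM, NC against SFRP2-siRNA with no covariate, so fold changes are on the log2(FPKM + 1) scale and are understated for low genes. Benjamini-Hochberg adjustment ran over all of them, and the script was tested on simulated data. Single genes below the minimum had an exact permutation test.

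The members and lists were chosen with earlier results of these data known. Named genes were the members, Sfrp2, the 3 genes of each list with the smallest unadjusted p, the actins, and the 3 genes most like Acta2, Rgs5 and Postn; other genes were named after their values were seen. Values of 2 genes that this rule names are not reported here. Alternatives covered the pseudocount, filter, scaling, trend, weights, replicate block, voom on recovered reads and each library left out.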

Additional observations from a re-analysis of the deposited data

How the results depend on the processing

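No gene was called by limma under any of the 17 alternatives, voom on recovered reads among them. Of 170 alternative fits of the members and Sfrp2, 164 kept the direction and side of the threshold and 6 turned the direction: Acta2 with median-of-ratios scaling (-0.046), and Cnn1 under median-of-ratios scaling (-0.089), under quantile normalization (-0.086), equal sums without mitochondrially encoded genes (-0.053), without NC replicate 2 (-0.033) and without SFRP2-siRNA replicate 3 (-0.020), with leave-one-out values of Cnn1 from -0.033 to 0.089. The cause was not tested. All 201 fits of the 12 named list genes kept their direction. The count of genes at an unadjusted p under 0.05, 1533, ran with 1 library left out from 887 without NC replicate 1 to 1970 without NC replicate 2, and was 2233 when samples were weighted. Its higher part, 1075, was 397 with equal sums without mitochondrially encoded genes, 438 under median-of-ratios scaling, 472 under quantile normalization and 460 to 1566 with 1 library left out. Its lower part, 458, was 699 with no filter, 747 under median-of-ratios scaling, 817 when samples were weighted and 302 to 583 with 1 library left out. Genes without overlap, 2854, were 1651 with equal sums without mitochondrially encoded genes (707 higher, 944 lower). Over all genes the median log2 fold change was 0.20 when sums were made equal and 0.0046 under median-of-ratios scaling. Correlations of same-number deviations were -0.047, -0.15 and 0.38, too few and too mixed to decide whether replicate numbers pair the samples. With the replicate block no gene was called and 1929 had an unadjusted p under 0.05. The smallest limma adjusted p in that fit was 0.193. Tagln, at 14 to 46 reads, was the only member below the minimum for testing.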

Other observations

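The regulators of the contractile genes were themselves measured. Srf, the factor that binds CArG boxes, lay at 17.3, 18.8 and 17.0 FPKM in NC and 14.3, 20.1 and 20.1 FPKM where the label reads SFRP2-siRNA (log2 fold change 0.024 ± 0.17 SE). Its partner Mrtfa lay at 6.74, 7.36 and 8.48 FPKM in NC and 6.93, 7.72 and 9.96 FPKM in the siRNA libraries. Myocd, the partner restricted to heart and smooth muscle, was at 0.027 to 0.109 FPKM in all 6 libraries, below the minimum for testing. The groups overlapped for all 3 genes, which were chosen after their values were seen.

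Among the ligands, Tgfb3 measured 4.92, 5.44 and 5.51 FPKM in NC and 5.88, 6.69 and 8.52 FPKM in the siRNA libraries, and Tgfb2 measured 1.62, 1.95 and 1.40 FPKM in NC and 2.08, 1.97 and 2.55 FPKM in the siRNA libraries, both without overlap (limma adjusted p = 0.520 and 0.524). For Tgfb2 the margin was narrow. Higher values without overlap were found in 13.9% of all genes tested. Tgfb1 overlapped between the groups by a narrow margin, at 9.40, 10.65 and 7.83 FPKM in NC and 15.3, 12.1 and 10.5 FPKM in the siRNA libraries. Pdgfb, the endothelial ligand of Pdgfrb, measured 6.40, 5.66 and 5.22 FPKM in NC and 6.70, 5.14 and 4.59 FPKM in the siRNA libraries, with overlap. Ltbp2, a matrix protein of elastic fibers, had the lowest log2 fold change of the matrix list, -0.55 ± 0.27 SE, with 8.93, 9.44 and 5.85 FPKM in NC and 7.76, 4.20 and 3.92 FPKM in the siRNA libraries.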
